A study of Mus musculus with 2 samples.

Results

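Mitochondrial ribosomal proteins are the nuclear-encoded proteins of the ribosome that works inside mitochondria, and their mRNAs were compared here between a fast and a slow pool of mouse muscle fibres. The genes were chosen by name: every gene with a symbol beginning Mrpl (large subunit) or Mrps (small subunit) whose RefSeq accession had a probe on the array, taken at its brightest probe. This gave 78 genes, 49 of the large and 29 of the small subunit, of 23458 genes with a probe. The mouse gene table holds 84 symbols of this form, and the other 6 are pseudogenes, none of which had a probe. All 78 genes were well above background on both arrays.

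Both pools came from 8 male mice aged 6 to 8 weeks, all GFP-Myh7 heterozygous (G/+), so the fast fibres carry the tagged slow myosin allele too. The fast pool joined 4447 fibres without GFP from the extensor digitorum longus (EDL), a fast hind limb muscle, and the slow pool joined 1659 GFP-positive fibres from the soleus, a postural calf muscle. The tissue field of the slow sample reads EDL, while its source name and treatment protocol give the soleus, which was taken as its origin, so fibre type and muscle differ together. Each pool was labelled with Cy3 from 0.1 µg of total RNA and hybridised to 1 array, so no difference below has a replicate check, and no test between the pools is possible.

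The mitochondrial ribosome translates the few mRNAs made from mitochondrial DNA, all of which encode subunits of the respiratory chain and the ATP synthase. Its ribosomal RNAs are mitochondrial transcripts, whereas every one of its proteins is encoded in the nucleus, made on cytosolic ribosomes and imported. Part of these proteins descend from bacterial ribosomal proteins and part are specific to mitochondria. Slow fibres of limb muscle are known for their oxidative metabolism and fast fibres, above all those of the EDL, for glycolytic work.

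The promoters of 4 members are shown because they span the result: Mrps18a and Mrps9 are among the 3 genes with the highest slow minus fast difference, Mrpl46 shares a start region with a small subunit gene, and Mrps21 has the lowest difference. Each window runs from 250 bases before the annotated start to 50 after it, 5′ to 3′ on the gene's strand, from RefSeq on build GRCm38.p6. Capitals mark matches, on either strand, to the letters searched: CCGGAAG (ETS family), AAGATGGCG (YY1), GCGC followed after any 2 bases by GCGC (NRF1), AAGGTCA (estrogen-related receptors), TATAAA and CCAAT. The windows are chr17:46110754-46111053 on the plus strand for Mrps18a, chr1:42850983-42851282 on the plus strand for Mrps9, chr7:78783040-78783339 on the minus strand for Mrpl46 and chr3:95871465-95871764 on the minus strand for Mrps21.
Mrps18a: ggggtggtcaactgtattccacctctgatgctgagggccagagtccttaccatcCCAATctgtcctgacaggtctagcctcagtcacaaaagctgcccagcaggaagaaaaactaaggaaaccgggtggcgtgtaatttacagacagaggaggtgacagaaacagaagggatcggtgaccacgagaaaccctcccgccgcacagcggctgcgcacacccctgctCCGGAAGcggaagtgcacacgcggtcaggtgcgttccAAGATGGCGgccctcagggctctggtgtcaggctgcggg
Mrps9: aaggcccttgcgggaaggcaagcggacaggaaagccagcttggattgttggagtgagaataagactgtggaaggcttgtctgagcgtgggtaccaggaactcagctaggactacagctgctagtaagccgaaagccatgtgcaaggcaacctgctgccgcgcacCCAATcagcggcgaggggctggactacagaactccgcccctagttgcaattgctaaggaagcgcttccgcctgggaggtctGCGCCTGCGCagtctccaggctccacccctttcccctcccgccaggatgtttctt
Mrpl46: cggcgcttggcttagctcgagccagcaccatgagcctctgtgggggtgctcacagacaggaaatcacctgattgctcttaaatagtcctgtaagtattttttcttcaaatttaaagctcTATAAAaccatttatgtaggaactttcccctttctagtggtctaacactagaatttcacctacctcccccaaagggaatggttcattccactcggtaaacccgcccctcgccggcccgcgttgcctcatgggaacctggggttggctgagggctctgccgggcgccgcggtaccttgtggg
Mrps21: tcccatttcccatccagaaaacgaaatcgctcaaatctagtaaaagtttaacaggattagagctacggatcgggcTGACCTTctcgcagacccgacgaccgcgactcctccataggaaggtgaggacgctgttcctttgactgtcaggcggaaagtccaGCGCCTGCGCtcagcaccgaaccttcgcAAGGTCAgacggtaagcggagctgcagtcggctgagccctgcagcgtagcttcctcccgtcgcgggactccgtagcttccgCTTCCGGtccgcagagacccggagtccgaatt
In these windows, Mrps18a has an ETS, a YY1 and a CCAAT match, Mrps9 an NRF1 and a CCAAT match, Mrpl46 a TATAAA match, and Mrps21 an ETS, an NRF1 and 2 estrogen-related receptor matches.

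Mitochondrial ribosomal protein mRNAs were modestly higher in the slow pool, and none differed by 2-fold. The median difference over the 78 genes was 0.20 (log2 slow minus fast, after scaling each array to the 75th percentile of its probes), which is 1.15-fold, with quartiles of 0.03 and 0.43. Over all 12846 genes measured on both arrays the median was 0.05. Those genes are mostly dimmer, with a median level in the fast pool of 0.9 against 4.4 for the members (log2 signal minus the 75th percentile). In all, 62 of the 78 genes (79.5%) lay above 0 and 16 below, against 53.2% of all measured genes above 0, and 56 lay above the median of all genes. The split above and below 0 moved with the scaling, to 51 and 27 under loess (where 47.8% of all measured genes lay above 0), to 53 and 25 in the authors' deposited table (46.1%), and to 78 and 0 under scaling to spike-in controls (72.7%). The median of the 78 genes lay above that of all measured genes by 0.15 under the 75th percentile, and by 0.09 to 0.21 over all 9 scalings. The smallest gap, 0.09, came under loess, which scales by mean signal and so takes brightness into account.

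**Figure D1:**
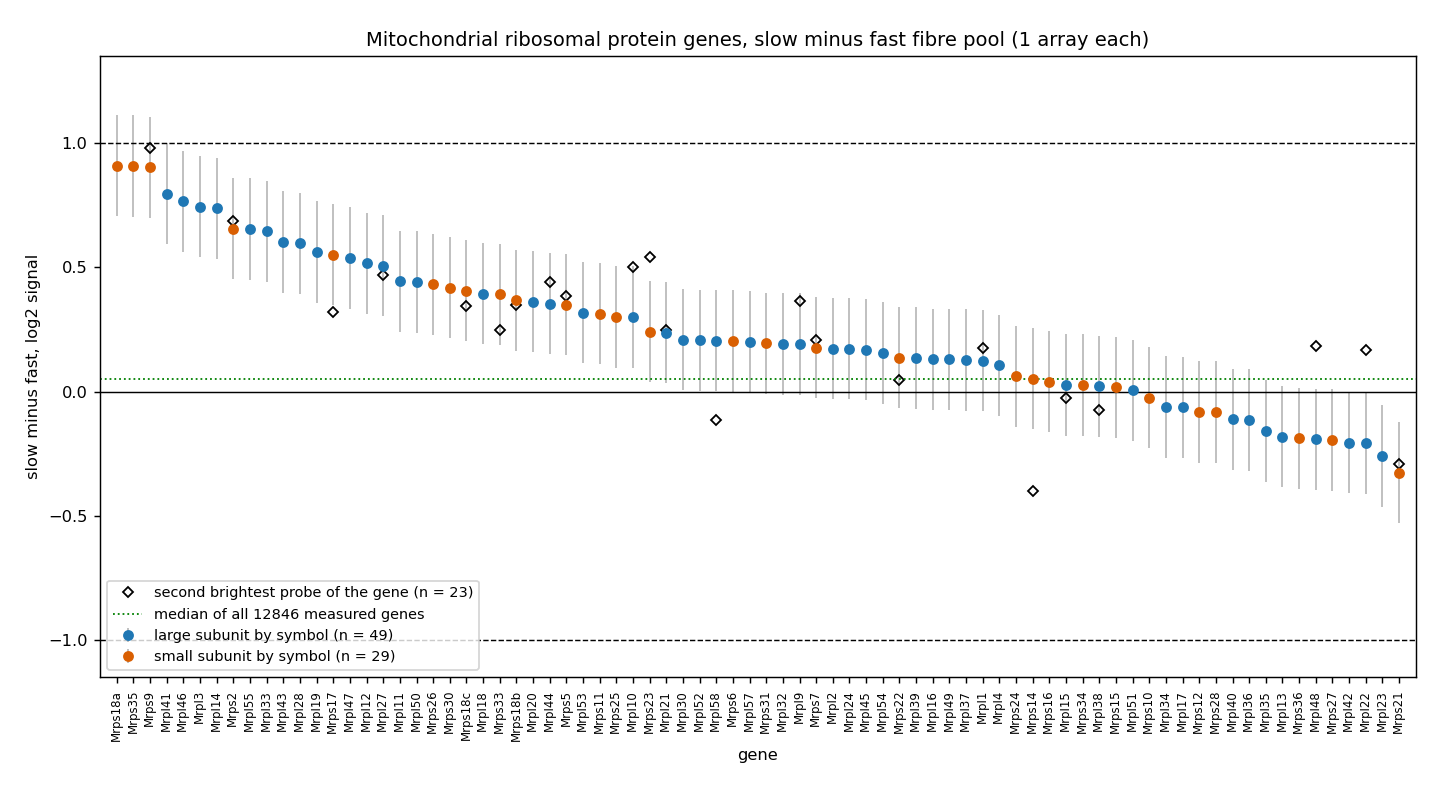
Slow minus fast difference (log2 signal, vertical axis) of each of the 78 mitochondrial ribosomal protein genes, ordered from the highest to the lowest and coloured by subunit. Grey bars are the scanner software's error of a difference (about 0.20), open diamonds the second brightest probe of a gene, dashed lines 2-fold. The brightest probes lie between -0.33 and 0.91, the second probes between -0.40 and 0.98, and both subunits are spread over the whole order.

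By the 2-fold rule, 0 of 78 genes were higher in the slow pool and 0 in the fast pool, where 9.47% and 12.7% of all measured genes passed. With spike-in controls as the scale, 10 of 78 (12.8%) passed in the slow direction, against 19.2% of all measured genes. At 1.5-fold, 12 genes (15.4%) were higher in the slow pool and 0 in the fast pool, where 20.1% and 20.9% of all genes passed. The share on the slow side is thus below the background and the fast side is empty. Neither trait is particular to these genes. At 1.5-fold, 3 of 76 cytosolic ribosomal protein genes passed on the slow side and 0 on the fast side. The nuclear subunits of complexes I, III, IV and V also had 3 of 76 and 0. The scanner software gives an error for each spot, which for a member's difference was 0.20 to 0.21. Repeated spots of a probe had a median SD of 0.05 in their difference. The software error was nearly the same for every member, so 2 errors (0.41) act as a nearly fixed size rule. A difference of more than 2 such errors was reached by 21 genes (26.9%) in the slow direction and by 0 in the fast direction, against 27.1% and 25.6% of all genes, and 57 genes stayed within it. The slow share equals the background to within 1 percentage point and is no result about these genes. The SD over the members was 0.30, against 1.09 over all measured genes, many of which are far dimmer. The spread is not particular to these genes, since it was 0.19 over the cytosolic ribosomal proteins and 0.29 over the nuclear subunits of complexes I, III, IV and V.

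**Figure D2:**
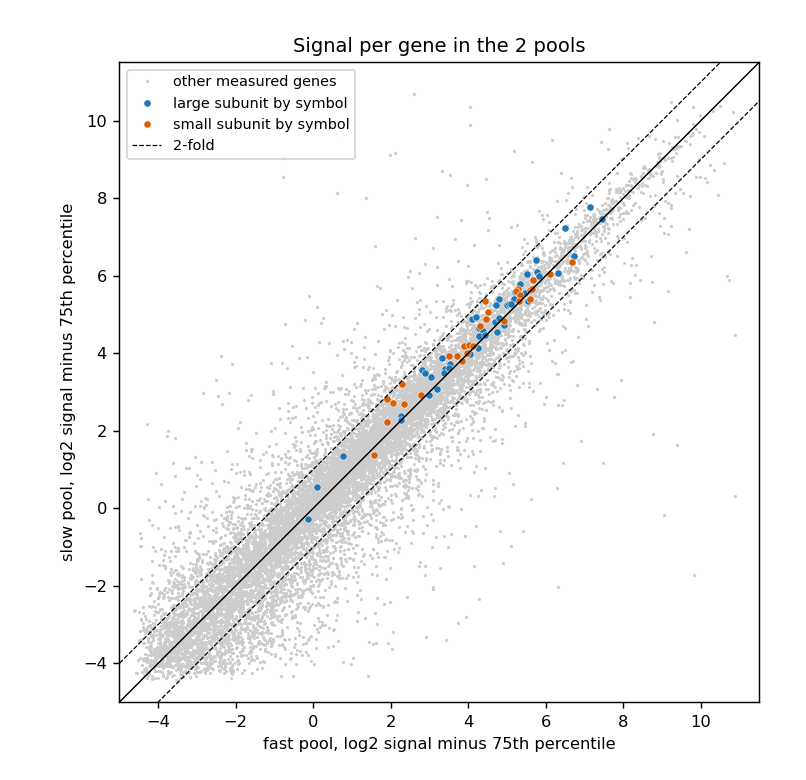
Signal of each gene in the fast pool (horizontal axis) and slow pool (vertical axis), both as log2 signal minus the 75th percentile of the array, for the 12846 measured genes in grey and the mitochondrial ribosomal protein genes in colour. All 78 coloured points lie between the dashed 2-fold lines, and most lie above the line of equality.

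The 2 subunits had nearly the same median. The 49 large subunit genes had a median difference of 0.19, a range of -0.26 to 0.80, 39 members above 0 and 8 past 1.5-fold. The 29 small subunit genes had a median of 0.20, a range of -0.33 to 0.91, 23 members above 0 and 4 past 1.5-fold. The large minus small difference of medians was -0.01, and the SD over genes was 0.29 in the large and 0.32 in the small subunit. The difference of medians ran from -0.09 under quantile normalization to 0.02 under normexp with the 75th percentile, so its sign depends on the scaling.

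The symbols do not follow the structure in every case, since the proteins of Mrps18a and Mrps30 sit in the large subunit and Mrps36 is a component of the 2-oxoglutarate dehydrogenase complex. With the genes placed by structure, the 51 large and 26 small subunit genes both had a median of 0.20. Mrps36 had a signal of 8584 in the fast pool and 8062 in the slow pool, a difference of -0.19. Mrps30 read 2020 and 2890, a difference of 0.42.

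The highest member was Mrps18a, one of 3 vertebrate paralogues of a bacterial small subunit protein. Its signal was 3856 in the fast pool and 7754 in the slow pool, a difference of 0.91 or 1.88-fold. Its difference was 0.77 or more under each of the 9 scalings and passed 2-fold only with spike-in controls. The other paralogues, Mrps18b and Mrps18c, are both small subunit proteins. Mrps18b read 6741 and 9313, a difference of 0.37 that its 2 further probes gave as 0.33 and 0.35. Mrps18c read 3523 and 4996, a difference of 0.41, with 0.35 from its other probe. Mrps18a thus exceeded Mrps18b by 0.54 and Mrps18c by 0.50 in the difference between pools, which is within 2 software errors of a gap between a pair of genes (0.58).

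Among small subunit genes, Mrps35, a mitochondria-specific protein of the head, followed with 669 and 1345, a difference of 0.91. Mrps9, the head protein related to bacterial S9, read 875 in the fast pool and 1752 in the slow pool, a difference of 0.90. Its second probe gave 0.98, so both probes place the slow pool almost 2-fold higher. The other 6 head proteins (Mrps7, Mrps10, Mrps14, Mrps24, Mrps31 and Mrps33) lay between -0.03 and 0.39, and the median over all 8 was 0.19. Mrps2, which descends from bacterial S2, read 740 and 1248, a difference of 0.66, with 0.69 from its second probe.

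The 16 proteins assigned to the body and platform of the small subunit had a median of 0.17 and none past 1.5-fold. They held the lowest member of all, Mrps21, the counterpart of bacterial S21. Mrps21 read 18380 in the fast pool and 15680 in the slow pool, a difference of -0.33 or 1.25-fold higher in fast fibres, and its second probe gave -0.29. It lay below 0 under 8 of the 9 scalings and at 0.06 with spike-in controls. The other end of this group was Mrps17, at 4081 and 6402, a difference of 0.55 that its second probe gave as 0.32. Mrps27, a mitochondria-specific protein with pentatricopeptide repeats, read 527 and 493, a difference of -0.20.

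In the large subunit the highest genes had diverse roles. Mrpl41, a mitochondria-specific protein, read 3050 in the fast pool and 5675 in the slow pool, a difference of 0.80. Mrpl46, a mitochondria-specific protein of the central protuberance, read 1249 and 2275, a difference of 0.77. Mrpl3, whose bacterial counterpart L3 reaches toward the catalytic centre, read 3277 and 5877, a difference of 0.74. These 3 genes were 1.74-fold, 1.70-fold and 1.68-fold higher in the slow pool. Mrpl14, related to bacterial L14, read 16080 and 28700, a difference of 0.74. Mrpl55 read 9640 and 16240, a difference of 0.65. Mrpl33, related to bacterial L33, read 25010 and 41880, also a difference of 0.65. Mrpl43 (0.60) and Mrpl28 (0.60) complete the 12 genes past 1.5-fold.

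At the other end of the large subunit, Mrpl23 was the lowest. It is related to bacterial L23, a protein at the rim of the exit tunnel, and read 14360 in the fast pool and 12840 in the slow pool, a difference of -0.26. Mrpl42 read 18830 and 17480, a difference of -0.21. Mrpl22, whose bacterial counterpart L22 lines the exit tunnel, read 5441 and 5042. Its difference was -0.21 by this probe and 0.17 by its second probe, so the gene has no settled direction. Mrpl48, of the central protuberance, behaved alike, with -0.19 from the brightest probe (8262 and 7741) and 0.18 from the second. Mrpl13 (-0.18), Mrpl35 (-0.16) and Mrpl36 (-0.11) were also among the 10 lowest, and no member's fast excess passed 2 software errors.

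The 5 genes nearest to 0 were Mrpl51 (0.01), Mrps15 (0.02), Mrpl38 (0.02), Mrps10 (-0.03) and Mrps34 (0.03). Mrpl51 read 31510 and 33850 and Mrps34 read 8937 and 9740, and the arrays as a whole differed by nearly the same ratio before scaling. Differences of this size are far below the software error.

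Within the large subunit, the structural regions overlapped. The L7/L12 stalk, where translation factors bind, had 5 of 5 genes above 0, against 79.6% of the 49 large subunit genes. Its median was 0.32, with a range from 0.16 (Mrpl54) to 0.52 (Mrpl12). Mrpl12 itself, the L7/L12 protein, read 8234 in the fast pool and 12610 in the slow pool. The stalk median stayed above 0 under all 9 scalings, from 0.19 to 0.71. So did the medians of the exit tunnel (lowest 0.03) and the catalytic region (lowest 0.01). The 5 genes of the catalytic region also all lay above 0, with a median of 0.17. The 8 genes at the exit tunnel had a median of 0.15 and ranged from -0.26 (Mrpl23) to 0.54 (Mrpl47). The 5 genes of the central protuberance were the most mixed, from -0.19 (Mrpl48) to 0.77 (Mrpl46), and their median of 0.02 fell below 0 under 5 of the other 8 scalings.

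The 45 members listed with a bacterial counterpart had a median of 0.19 and the 29 listed as mitochondria-specific also 0.19, with 35 and 24 members above 0. The lists used placed 4 genes in neither class: Mrps18a, Mrps30, Mrps36 and Mrpl55. These 4 had a median of 0.54 and include the highest member, so the class medians leave it out. The 5 proteins of the ribosome that carry other symbols lay within the range of the 78 genes. The highest was Gadd45gip1, a large subunit protein, which read 3278 in the fast pool and 6443 in the slow pool, a difference of 0.88 or 1.84-fold. The small subunit proteins Dap3 (-0.03), Chchd1 (0.20), Ptcd3 (0.28) and Aurkaip1 (0.29) were within 0.30 of 0.

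**Figure D3:**
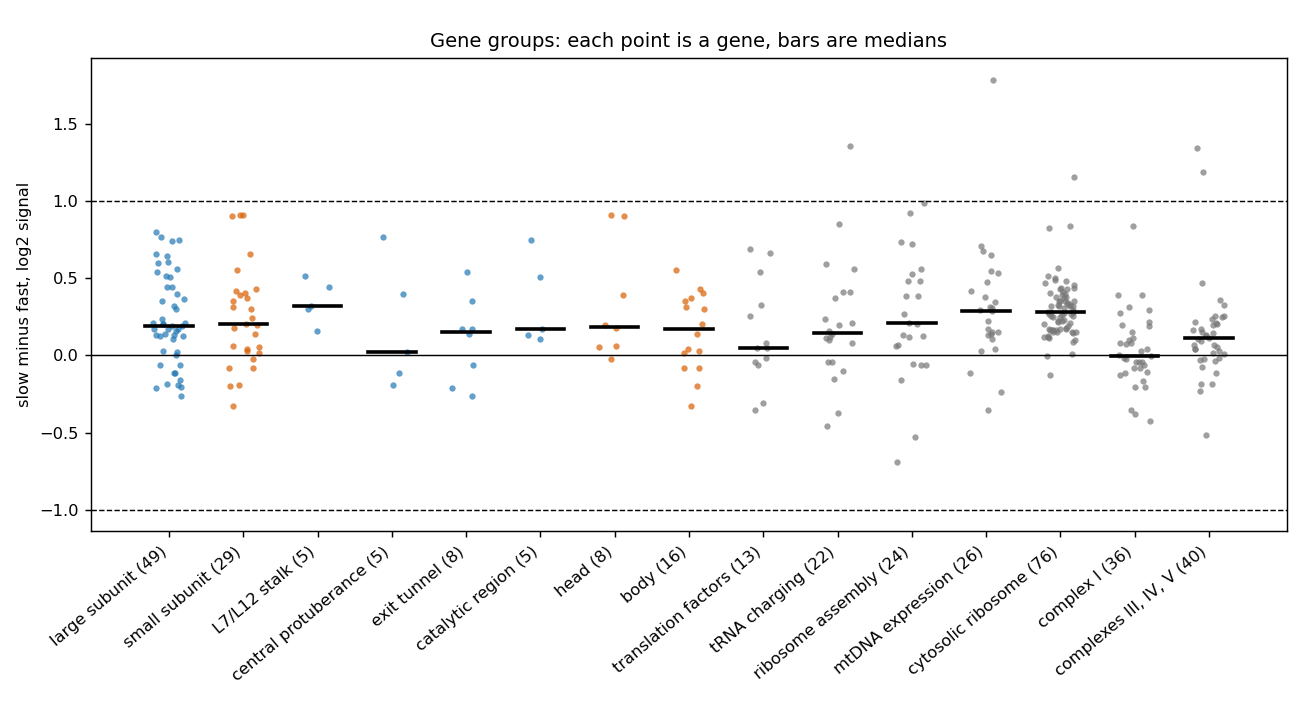
Slow minus fast difference (log2 signal, vertical axis) of single genes in the 2 ribosomal subunits, in regions of each subunit, and in other gene groups, with the number of measured genes in brackets. Black bars are medians and dashed lines 2-fold. The medians of the large (0.19) and small (0.20) subunits lie between those of complex I (-0.00) and the cytosolic ribosome (0.28).

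A second probe was present for 23 of the 78 genes, and it gives a check of the probe, not of the fibres, since both probes read the same 2 RNA pools. The range between probes of a gene had a median of 0.09 and was largest in Mrps14, where the brightest probe gave 0.05 and the dimmer one -0.40. That dimmer probe read only 17.8 (fast) and 14.5 (slow), with a software error of 0.31, against 2790 and 3095 for the brightest. For 17 of the 23 genes both probes had the same sign. Across these genes the 2 probes' differences correlated with a Pearson r of 0.78 and a Spearman rho of 0.79, and r was 0.63 without the 2 genes farthest from the median. The points share arrays and scaling, and genes are not independent replicates, so this is a description. Mrps9 and Mrps2 had the highest differences of the 23 by either probe, and Mrps21 was the lowest by its brightest probe and the next to lowest, after Mrps14, by its second. By contrast, Mrpl22, Mrpl48, Mrpl58, Mrps14, Mrpl15 and Mrpl38 changed sign.

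**Figure D4:**
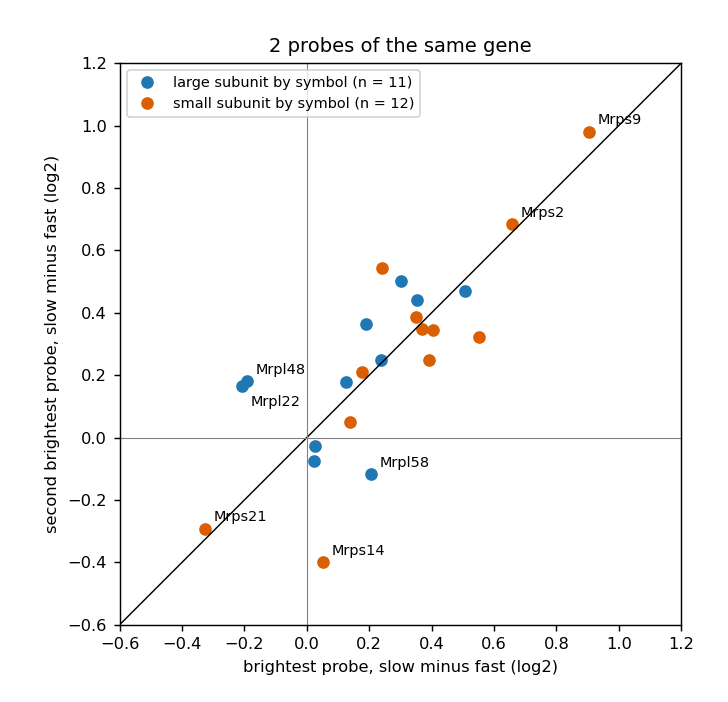
Slow minus fast difference (log2) by the brightest probe (horizontal axis) and the second brightest probe (vertical axis) for the 23 genes with several probes, coloured by subunit, with the line of equality. Mrps9 (0.90 and 0.98) and Mrps21 (-0.33 and -0.29) lie at opposite ends of the line. Mrps14, whose second probe was dim, lies farthest below it.

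Genes that serve the mitochondrial ribosome were compared by lists drawn up for their roles. Of 14 genes for translation factors, 13 were measured (Mtrfr had no probe) and 0 passed 2-fold, with a median of 0.05 that fell below 0 under loess, under normexp with quantile normalization and in the authors' deposited table. The elongation factor genes Tufm (-0.04) and Gfm1 (0.08) were near 0. Tsfm, the exchange factor for Tufm, read 271 in the fast pool and 467 in the slow pool, a difference of 0.69. Mtrf1l, a release factor, had the lowest value at -0.35 and Pdf, which removes the formyl group from new proteins, followed at -0.31. The factors for starting translation, Mtif2 (0.05) and Mtif3 (0.54), lay above 0. Mtrf1, also a release factor, stood at 0.26 and Mrrf, the ribosome recycling factor, at 0.66.

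Among 22 genes that charge mitochondrial tRNAs, 1 passed 2-fold in the slow direction and 0 in the fast direction, and the median was 0.15. That gene was Hars2, the histidyl-tRNA synthetase of mitochondria, which read 230 in the fast pool and 630 in the slow pool, a difference of 1.36. Its 2 dimmer probes gave 0.58 and 0.85, so the 2-fold call rests on the brightest probe. The 24 genes for assembly of the ribosome had a median of 0.21 and 0 past 2-fold. Mettl15, a methyltransferase of the small subunit's ribosomal RNA, was highest at 260 and 552, a difference of 0.99. Malsu1, an assembly factor of the large subunit, was lowest at 11870 and 7880, a difference of -0.69. It was 1.61-fold higher in the fast pool, a size that no mitochondrial ribosomal protein gene reached in that direction.

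The 26 genes for replication and expression of mitochondrial DNA had a median of 0.29, with 23 above 0 and 1 past 2-fold. The transcription factor gene Tfam (0.04) and the polymerase gene Polrmt (0.15) were close to the median of all genes. The gene past 2-fold, Mterf1a, read 15.8 and 58.2, a difference of 1.78 that fell to 0.64 and 0.70 under normexp, and it has a near-identical paralogue, Mterf1b (0.53), that its probe may not tell apart. Twnk, the mitochondrial DNA helicase, was lowest at -0.35. The 5 genes listed for the ribosome at the membrane were Cox18, Letmd1, Letm2, Letm1 and Oxa1l. They ran from -0.15 (Cox18) to 0.50 (Oxa1l, which receives new proteins at the ribosome), with a median of 0.14.

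The cytosolic ribosome, which shares its function but hardly any protein with the mitochondrial one, had 76 of 77 genes measured, with a median of 0.28 and 74 above 0. Rpl3 was the 1 member past 2-fold, at 2909 and 6946, a difference of 1.16, while Rps26 was lowest at -0.12. The 76 measured nuclear subunits of complexes I, III, IV and V, the complexes that mitochondrial translation supplies, had a median of 0.07, which turned to -0.14 under loess and to -0.05 in the authors' deposited table. Complex I stood at -0.00 over 36 genes, complex III at 0.12 over 8, complex IV at 0.17 over 15 and complex V at 0.04 over 17. In these 2 arrays the mitochondrial ribosome's median was 0.13 above that of the complexes and 0.08 below that of the cytosolic ribosome. The pooled median of the complexes was the lower under all 9 scalings, but complex I makes up 36 of its 76 genes. Under quantile normalization complexes III, IV and V had medians of 0.25, 0.33 and 0.28, above the 0.14 of the mitochondrial ribosome. Under normexp with quantile normalization they had 0.28, 0.32 and 0.32, above 0.17, so for these 3 complexes the order turns with the scaling.

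**Figure D5:**
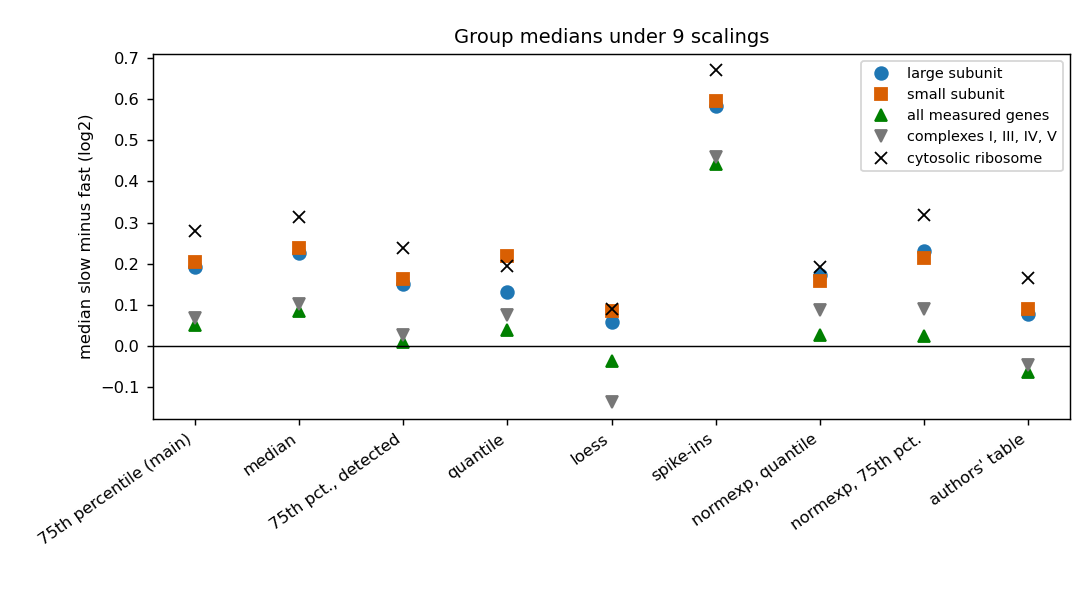
Median slow minus fast difference (log2, vertical axis) of the large and small mitochondrial subunits, the cytosolic ribosome, complexes I, III, IV and V and all measured genes under each of 9 scalings (horizontal axis). The 2 subunits lie farthest apart under quantile normalization (0.13 and 0.22) and run from 0.06 and 0.08 under loess to 0.58 and 0.59 with spike-in controls, above all measured genes under each of the 9.

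Promoter windows were found for 69 of the 78 members (75 windows, since a gene can have several), of 32851 windows in the RefSeq table. Mrps34, Mrps28, Mrpl38, Mrpl4, Mrpl54, Mrps35, Mrpl19, Mrpl13 and Mrpl15 had none. CCGGAAG was in 34.7% of the members' windows and in 8.86% of all windows. AAGATGGCG was in 10.7% against 1.40%, and the NRF1 word in 18.7% against 6.23%. These 3 words were thus several times as frequent as in windows at large, beside a median GC content of 58.7% against 52.7%, whose part in the shares was not tested. Windows at large include genes not measured in these pools. No share was computed among measured genes or other gene groups, so the excess cannot be called particular to the members. AAGGTCA was in 5.33% against 4.72%, CCAAT in 40% against 37.4% and TATAAA in 6.67% against 13.6%.

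The 26 genes with CCGGAAG had a median of 0.22 and the 43 without it 0.19, and both sets ran from below -0.25 to above 0.90. The 14 genes with the NRF1 word had a median of 0.21 against 0.20 for the 55 without. The 8 genes with AAGATGGCG had a median of -0.03 against 0.21, yet they included Mrps18a, the highest member. The 27 genes with CCAAT had a median of 0.32 against 0.20 for the 42 without, and the 4 genes with AAGGTCA one of -0.05 against 0.21. The 5 genes with TATAAA had a median of 0.13 against 0.21. Mrps18a and Mrps21, at opposite ends of the range, both have a CCGGAAG match in the windows printed above.

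Many members lie back to back with another gene. For 26 of the 69 members with a window (37.7%), a gene on the other strand started within 1000 bases upstream, against 12.2% of 27025 genes in the table. Those 27025 include genes not measured here, and no share was computed among measured genes. These 26 had a median difference of 0.33 and the other 43 one of 0.19. One pair joins both subunits: the starts of Mrpl46 and Mrps11 lie 42 bases apart, with differences of 0.77 and 0.31. Mrps12 lies 147 bases from Sars2, the mitochondrial seryl-tRNA synthetase gene, and the pair stood at -0.08 and -0.04. Mrpl43 lies 116 bases from Twnk, and here the members of the pair had opposite signs, 0.60 and -0.35. Mrpl30 (0.21) and its neighbour Mitd1 (-0.86) also differed in sign, and the widest such gap was Mrps18b (0.37) with Ppp1r10 (-1.55). Most of the 23 members with a measured partner shared its sign, with Mrpl46 and Mrps11 each counted as the other's partner. Signs can match without any link, since 79.5% of members and 53.2% of all measured genes lay above 0. The share for other back-to-back pairs was not computed.

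Depth and purity of the pools frame these values. On each array 52.3% (fast) and 50.9% (slow) of spots were well above background, no spot was saturated, and 291 probes printed repeatedly had a median SD of 0.05 in their difference. All 7 slow fibre markers were past 2-fold in the slow pool (median 7.51, range 1.26 to 9.81). All 9 fast fibre markers were past it in the fast pool (median -4.85, range -11.54 to -1.38). The slow markers include Myh7, the GFP-tagged gene by which fibres were chosen, which is thus no separate check. Some markers were bright in both pools, as Myl3 read 107000 (fast) and 273800 (slow), and Tnnc2 217500 and 89430. Markers of several other cell types were mostly higher in the fast pool. There, 10 of 11 endothelial genes passed 2-fold (median -1.48, range -3.90 to -0.86). So did 9 of 10 measured fibroblast genes (-1.77) and 4 of 4 measured erythrocyte genes (-1.31). Other lists were mixed. Of 7 measured Schwann cell genes (-1.09), 4 passed 2-fold in the fast pool and 2, Mbp (2.32) and Pmp22 (1.97), in the slow pool. Of 8 smooth muscle and pericyte genes (-0.78), 3 passed in the fast pool and 1, Cspg4 (1.24), in the slow pool. The 2 measured satellite cell genes lay above 0 (0.44), and of 2 measured adipocyte genes (-0.49) 1 passed in the fast pool. Of 13 immune genes, 6 were measured on both arrays (median -0.48, 2 past 2-fold in the fast pool), 2 were well above background in the fast pool only, and 5 on neither array, among them Ptprc, Adgre1 and Lyz2. Cd68, a macrophage gene, read 2341 in the fast pool and 568 in the slow pool, while Itgam read 2528 and 3167. The part of such RNA in the members' differences was not tested, and in pooled fibres fewer cells of a type and less RNA per cell cannot be told apart.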

How the data were processed

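RNA of the 2 pools was measured on 1-colour Agilent mouse arrays. The deposited scanner files hold spot intensities, which the scanner software (Feature Extraction 12.0.3.1 by Agilent, per the submitters' processing notes) corrected for background and spatial trend within each array, per the file headers, and did not normalize between arrays. They also give a software error and flags (0 or 1) for spots well above background, saturated or outlying, per the file headers. In the value table the authors deposited, intensities are linear and equal these times 2.83 (fast) and 2.45 (slow), with column medians of 30.1 and 27.1, no log and no centring. What those factors scale to is not given in the sources used here.

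Control spots and 159 outlier spots of 59305 were removed, leaving 56596 probes, of which 33763 (59.7%) were named through RefSeq accessions on GRCm38.p6, used for names, neighbours and promoters only because the array refers to mm9. The log2 signal minus each array's 75th percentile was taken per probe, and the brightest probe by mean signal per gene. A gene counted as measured if well above background on both arrays. Alternatives were other scalings (median, 75th percentile of detected probes, quantile, loess with span 0.3, spike-ins, normexp with offset 50, the authors' table), probe, filter, subunit and size rules. With 1 array per group no test was run. Named members are the 10 highest, 10 lowest, 5 nearest to 0, the Mrps18 paralogues, Mrps30, Mrps36 and 5 proteins with other symbols, and from each related list those past 2-fold or the highest and lowest. Other genes named were chosen after their values were seen. The members and lists were chosen with earlier results of these data known. The scaling step was tested on simulated data. Python 3.11.15, pandas 2.3.3, R 4.3.3 and limma 3.58.1 were used. The 2 arrays shared a slide and a scan.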

Additional observations from a re-analysis of the deposited data

How the results depend on the processing

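With 1 array per pool, no replicate can be left out, no paired analysis was possible, and no test was made. The medians over the 78 genes, the large subunit and the small subunit lay above 0 under every scaling. Their sizes moved to 0.14, 0.13 and 0.22 under quantile normalization, where large minus small was -0.0880. They moved to 0.0596, 0.0589 and 0.0848 under loess, to 0.59, 0.58 and 0.59 with spike-in controls, and to 0.0848, 0.0791 and 0.0905 in the authors' deposited table. Spike-in scaling shifted the median of all measured genes from 0.05 to 0.44 and the authors' table shifted it to -0.06. The count past 2-fold in the slow pool was 0, rose to 10 (12.8%) with spike-in controls, where 19.2% of all genes passed, and was 12 at a 1.5-fold rule. The count past 2-fold in the fast pool was 0 under all 9 scalings. Of the 78 genes, 50 lay above 0 under all 9 scalings and 0 lay below. The 0 was fixed by spike-in scaling, which put all 78 above 0. The matching share of all measured genes was not computed, so the 50 is no result about these genes. Spike-in controls, the authors' table, the median and detected probes shift each gene by a constant, so changes of sign under them restate that shift. Scaling to the median or to detected probes, curated accessions, no filter on dim probes, the median over probes, placing genes by structure and adding members with other symbols each moved these medians by less than the spread of repeated spots (0.05). Signals lay well above background for all members, and the limit is the number of arrays.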
